A study of Mus musculus with 3 samples.

Results

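Genes that had stood out in Cr2-positive cells of lymph node (LN) stroma, namely Sox9, Coch, Clu, Il4i1, Spint2, Cilp and Epcam, were followed across cell gates and libraries, 7 of the 51912 genes counted. They were chosen on measured values of these same libraries, namely their higher level in barcodes with Cr2 transcripts, so that their levels in Cr2-positive against other barcodes are given as a description, with no test. Cr2 encodes the complement receptors with which follicular dendritic cells (FDCs) hold immune complexes (ICs), and barcodes with at least 1 unique molecular identifier (UMI, a counted transcript molecule) of Cr2 form the Cr2 gate. The remaining barcodes were gated in turn, each without the gate genes before it, on Madcam1, a marker of marginal reticular cells, on Tnfsf11, which encodes RANKL, on Fmod, a marker of the reticular cells that the study names TBRCs, and on Inmt, known from medullary reticular cells. A barcode with 0 UMIs of a gate gene may still come from a cell that expresses it.

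The cells were sorted from LNs of C57BL/6 mice as cells with podoplanin and TdTomato but without CD31 and CD45. TdTomato came from the Cxcl13-Cre/tdTomato transgene, so that only stroma with this mark of Cxcl13 activity was sampled. Whether the mark covers past activity is not stated in the study. All mice had received an antigen-IC. By their titles, the 2 libraries of the 2-IC group came from mice given 2 antigen-ICs, 7 days and 24 hours before analysis. The 1 library of the 1-IC group came from mice given 1 antigen-IC 24 hours before. The short labels of the 2-IC libraries differ, with 24 hours for replicate 1 and 7 days for replicate 2. No library came from mice without an IC. The methods of the study speak of independent experiments with LNs of several mice pooled, but do not say which library came from which experiment or mice. The p-values below, where the library is a block, measure how the difference within a library varies over these 3 libraries. They rest on 2 residual degrees of freedom, or fewer where a library was left out, and on dispersion shared over genes.

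FDCs build the network of the B cell follicle on which native antigen is displayed to B cells, and they arise from stromal precursors under lymphotoxin and TNF signals. Of the 7 genes, Sox9 encodes a transcription factor best known from cartilage, Coch encodes cochlin, a secreted protein first known from the inner ear, and Cilp encodes a matrix protein of the cartilage intermediate layer. Clu encodes clusterin, a secreted chaperone, and Il4i1 a secreted enzyme that oxidises aromatic amino acids. Spint2 encodes a membrane-bound Kunitz-type inhibitor of serine proteases, and Epcam an adhesion molecule best known from epithelium, where the Spint2 product protects it from cleavage.

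The libraries held 3790, 1029 and 667 barcodes with 20607903, 12788101 and 3766526 UMIs (here and below, the 2-IC group by its replicate number first and the 1-IC group last). After removal of barcodes with few genes, much mitochondrial RNA or any UMI of 13 contaminant genes, 2243 of 5486 barcodes remained, of which 230 were in the Cr2 gate (145, 35 and 50), 83 in the Madcam1 gate, 593 in the Tnfsf11 gate, 256 in the Fmod gate and 633 in the Inmt gate, and 448 had none of the gate genes. Median depth of the retained barcodes was 4700.5, 14732 and 5979 UMIs, with 2-IC replicate 2 the deepest. The 2 libraries of the 2-IC group shared 76 cell barcodes, against 2 and 0 in the other pairs, and 2 barcodes of the Cr2 gate in each of these libraries carried a shared sequence. Without all shared barcodes the mean log2 ratio of the Cr2 gate over the 4 other gates pooled was 2.48 in place of 2.41 for Sox9 and 5.65 in place of 5.54 for Epcam, and those of the other 5 genes moved by less than the spread between libraries.

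Among the FDC markers, Fcer2a was at 198 ± 25.3 CPM (UMIs of the gene per 1000000 UMIs of the summed barcodes, mean ± SD of the 3 libraries) in the Cr2 gate against 10 ± 11.3 in the Madcam1 gate, and Fcgr2b at 218 ± 39.6 against 11.4 ± 14.6. Cxcl13 was at 35604 ± 17087 CPM in the Cr2 gate, while Enpp2 was lower there (2047 ± 343) than in the Madcam1 gate (4988 ± 717). Markers of immune cells were present at low level in every gate: the summed B cell markers lay between 393 and 975 CPM in the Cr2 gate and between 207 and 879 in the 4 other gates, of which Cd74 made up 668 ± 268 in the Cr2 gate, and the 5 myeloid markers between 88.7 and 212 against 16.3 to 154. Cd79a, Cd79b, Cd3d, Trac, Cldn5, Egfl7 and Krt18 were at 0 because a UMI of any of them removed the barcode. The part of such RNA in the levels below was not tested. The filter also removed 338 barcodes with both Cr2 and stromal RNA, more than the 230 it kept. Levels of the 7 genes in them were lower than in the Cr2 gate, with Sox9 at 90.1 ± 26.5 CPM, Coch at 48.1 ± 47.3, Il4i1 at 191 ± 71.6, Spint2 at 96.3 ± 39.2, Cilp at 108 ± 49.3 and Epcam at 21.1 ± 3.11.

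Coch lies on chromosome 12 at 51593341-51605771, Spint2 on chromosome 7 at 29256323-29281912, Cilp on chromosome 9 at 65265180-65280605 and Epcam on chromosome 17 at 87635979-87651129 (GRCm38, GENCODE M21). Sox9 (chromosome 11, 112782224-112787760), Clu (chromosome 14, 65968483-65981547) and these 4 overlap no other annotated gene. Il4i1 (chromosome 7, 44816387-44840809) overlaps Nup62 on its own strand and Atf5 and Tbc1d17 on the other, so its UMIs are less certain than those of the others. RefSeq promoter windows were matched for 5 of the 7 genes, which leaves out Sox9 and Clu. The 250 bases before the start of 4 genes are shown from RefSeq (GRCm38.p6), with CpG dinucleotides in capitals, because these genes were seen together in barcodes to different degrees and their promoters are of different types. They are at chr12:51593091-51593340 on the plus strand, chr7:29281978-29282227 on the minus strand, chr9:65264930-65265179 on the plus strand and chr17:87635729-87635978 on the plus strand.

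Coch: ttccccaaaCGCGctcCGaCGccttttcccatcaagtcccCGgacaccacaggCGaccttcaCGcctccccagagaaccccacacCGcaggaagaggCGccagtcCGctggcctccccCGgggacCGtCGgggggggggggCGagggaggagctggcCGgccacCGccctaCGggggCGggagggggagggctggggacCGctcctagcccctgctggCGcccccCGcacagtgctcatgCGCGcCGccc
Spint2: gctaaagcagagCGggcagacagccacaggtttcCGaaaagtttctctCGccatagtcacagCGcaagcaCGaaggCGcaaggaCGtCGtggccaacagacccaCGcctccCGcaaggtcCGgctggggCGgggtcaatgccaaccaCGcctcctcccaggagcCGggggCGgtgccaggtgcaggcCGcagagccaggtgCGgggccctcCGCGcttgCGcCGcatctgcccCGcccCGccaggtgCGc
Cilp: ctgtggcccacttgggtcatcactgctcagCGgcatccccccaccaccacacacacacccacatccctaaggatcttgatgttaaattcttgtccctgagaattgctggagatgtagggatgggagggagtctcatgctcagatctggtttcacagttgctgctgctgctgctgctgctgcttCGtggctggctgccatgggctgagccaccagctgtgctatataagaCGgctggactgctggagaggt
Epcam: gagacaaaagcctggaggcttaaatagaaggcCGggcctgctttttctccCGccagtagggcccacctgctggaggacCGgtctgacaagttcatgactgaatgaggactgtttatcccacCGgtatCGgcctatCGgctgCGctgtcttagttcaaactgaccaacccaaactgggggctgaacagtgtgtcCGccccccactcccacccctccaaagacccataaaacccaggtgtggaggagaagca

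The promoters of Coch and Spint2 each held 24 CpGs and had a GC content of 74.8% and 69.6%, which is above that of 95.8% and 90.2% of 32851 promoter windows of the same length. Cilp and Il4i1 had 3 CpGs each and Epcam 8. The core letters of the sites bound by SOX factors, ACAAT, were in none of these 5 windows on either strand, and ACAAA was in the Epcam window only, while 27.7% and 43% of all windows held them. TATAA was found before Cilp alone of the 5, and in 22.8% of all windows. Such matches are descriptions of letters and do not show binding.

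At full depth and after the contaminant filter, Epcam and Spint2 were higher in the Cr2 gate than in each of the 4 other gates in every library. So were Sox9, Coch, Il4i1 and Cilp, with smallest folds of 1.98, 2.76, 2.32 and 1.65, while Clu was not. The share of all genes that do so was not counted. Spint2 was at 357, 161 and 576 CPM in the Cr2 gate of the 3 libraries, against 57.1, 11.8 and 102 in the Madcam1 gate. Epcam was at 54.4, 72 and 140 CPM in the Cr2 gate, with 46, 30 and 45 UMIs. It had 3, 0 and 2 UMIs in the Madcam1 gate, and 1 UMI in all 593 Tnfsf11-gated, 1 in all 256 Fmod-gated and 1 in all 633 Inmt-gated barcodes.

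At full depth Epcam and Spint2 were the 2 of the 7 genes at least 4-fold higher in the Cr2 gate than in each other gate in every library. Gates under 3 UMIs were set to a floor of 3 counts. Of 3029 genes at or above 50 CPM in the Cr2 gate, 20 did so, or 0.66%, and since the genes were chosen on this contrast nothing is read from the comparison. At equal depth 0 of the 7 met the limit, with gates and values at 2000 UMIs per barcode or with values at 1000 UMIs. Without the contaminant filter 0 met it as well. The share of all genes that met the limit at these settings is not given, so nothing is read from these counts. Thinning to 2000 UMIs left 30000 of 107914 UMIs in the Madcam1 gate of the 1-IC library, as gated at full depth. There the floor of 3 counts rises above its 27.8 CPM at full depth. A gene as low as Epcam can then miss the limit through the floor alone, so for such a gene the miss does not show a smaller fold. Spint2 can miss it in this way too. In 2-IC replicate 2 Spint2 was at 161 CPM in the Cr2 gate at full depth, and thinning left 28000 of 254152 UMIs in the Madcam1 gate. The mean levels of Spint2 were 365 ± 208 CPM in the Cr2 gate and 56.9 ± 45.1 in the Madcam1 gate at full depth. They lay closer together with gates and values at 2000 UMIs. That setting redraws the gates on thinned counts, with 86, 25 and 34 barcodes in the Cr2 gate. A barcode that loses its Cr2 UMIs can then enter another gate, and the part of this in the levels was not tested. With gates and values at 2000 UMIs, Spint2 was at 498 ± 237 CPM in the Cr2 gate and 240 ± 219 in the Madcam1 gate, Coch at 360 ± 156 and 107 ± 94.1, and Epcam at 211 ± 107 and 28 ± 25.1. Without the contaminant filter Spint2 was at 177 ± 118 and 108 ± 75.6. At full depth the smallest fold of Spint2 was 5.65 (95% counting interval 3.09 to 11.5), against the Madcam1 gate of the 1-IC library. For Epcam the ratios to the Madcam1 gate rest on few UMIs. The measured ratio was 5.72 (1.84 to 28.7) in 2-IC replicate 1 and 7.56 (1.97 to 64.3) in the 1-IC library, where the floor of 3 counts lowers it to 5.04. In 2-IC replicate 2, where the Madcam1 gate had 0 UMIs, the floor gives at least 6.1-fold, and the lower end of the counting interval is 4.66. Of the 5 genes outside the limit, Coch had the highest smallest fold, 2.76.

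Coch, Cilp and Il4i1 had mean levels in the Madcam1 gate between those of the Cr2 gate and of the other gates, at full depth and after the contaminant filter. Sox9, Clu, Spint2 and Epcam had the same order of means. Coch was at 263, 218 and 162 CPM in the Cr2 gate, at 95.2, 19.7 and 46.3 in the Madcam1 gate, and at 15.2 ± 6.55 in the Tnfsf11 gate. Cilp was at 467, 305 and 367 CPM in the Cr2 gate, at 165, 86.6 and 222 in the Madcam1 gate, and at 13.3 ± 5.07 in the Tnfsf11 gate. Il4i1 was at 418, 377 and 495 CPM in the Cr2 gate, at 111, 138 and 213 in the Madcam1 gate, and at 24.3 ± 18.5 in the Tnfsf11 gate. The values of the Cr2 and Madcam1 gates did not overlap for any of the 3 genes, and those of the Madcam1 and Tnfsf11 gates overlapped only for Coch. The share of all genes that separate in this way was not counted, so nothing is read from it. Without the contaminant filter the order of the means was turned for Coch, at 95.9 ± 35.4 CPM in the Cr2 gate and 152 ± 175 in the Madcam1 gate, while Il4i1 (257 ± 89.3 and 208 ± 84.7) and Cilp (177 ± 8.17 and 114 ± 72) kept it.

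Against the Tnfsf11, Fmod and Inmt gates alone, Coch, Il4i1, Spint2, Cilp and Epcam were at least 4-fold higher in every library, 5 of the 7, as were 72 of the 3029 genes, or 2.38%. Against these 3 gates pooled, the fold in the 3 libraries was 11.5 to 34.7 for Coch, 17.6 to 64.4 for Il4i1, 18.3 to 29.3 for Cilp and 38 to 49.5 for Spint2. Against the Madcam1 gate it was 2.76 to 11.1 for Coch, 2.32 to 3.76 for Il4i1 and 1.65 to 3.52 for Cilp.

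Sox9 and Clu were also present at appreciable levels outside the Cr2 gate. Sox9 was at 279, 288 and 336 CPM in the Cr2 gate, and its spread there was the smallest of the 7 genes relative to its mean (301 ± 30.8). In 2-IC replicate 2, however, it was also at 146, 123, 114 and 112 CPM in the Madcam1, Tnfsf11, Fmod and Inmt gates, 1.98- to 2.58-fold below the Cr2 gate, whereas in the 1-IC library it was at 14, 19.9 and 26.8 CPM in the Tnfsf11, Fmod and Inmt gates. In 64 barcodes of the same library that the filter removed and that had B cell genes but no collagen UMIs, Sox9 had 1 UMI (2.58 CPM).

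Clu was the most abundant of the 7 genes, at 17043, 11052 and 24340 CPM in the Cr2 gate. The Madcam1 gate had 12923, 13740 and 19784 CPM, so that the gates overlapped and the order was turned in 2-IC replicate 2, where the Cr2 gate was at 0.804 of the Madcam1 gate. Against the Tnfsf11 and Fmod gates the fold of Clu was 2.49 to 3.76, and against the Inmt gate 4.41 to 9.86.

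**Figure D1:**
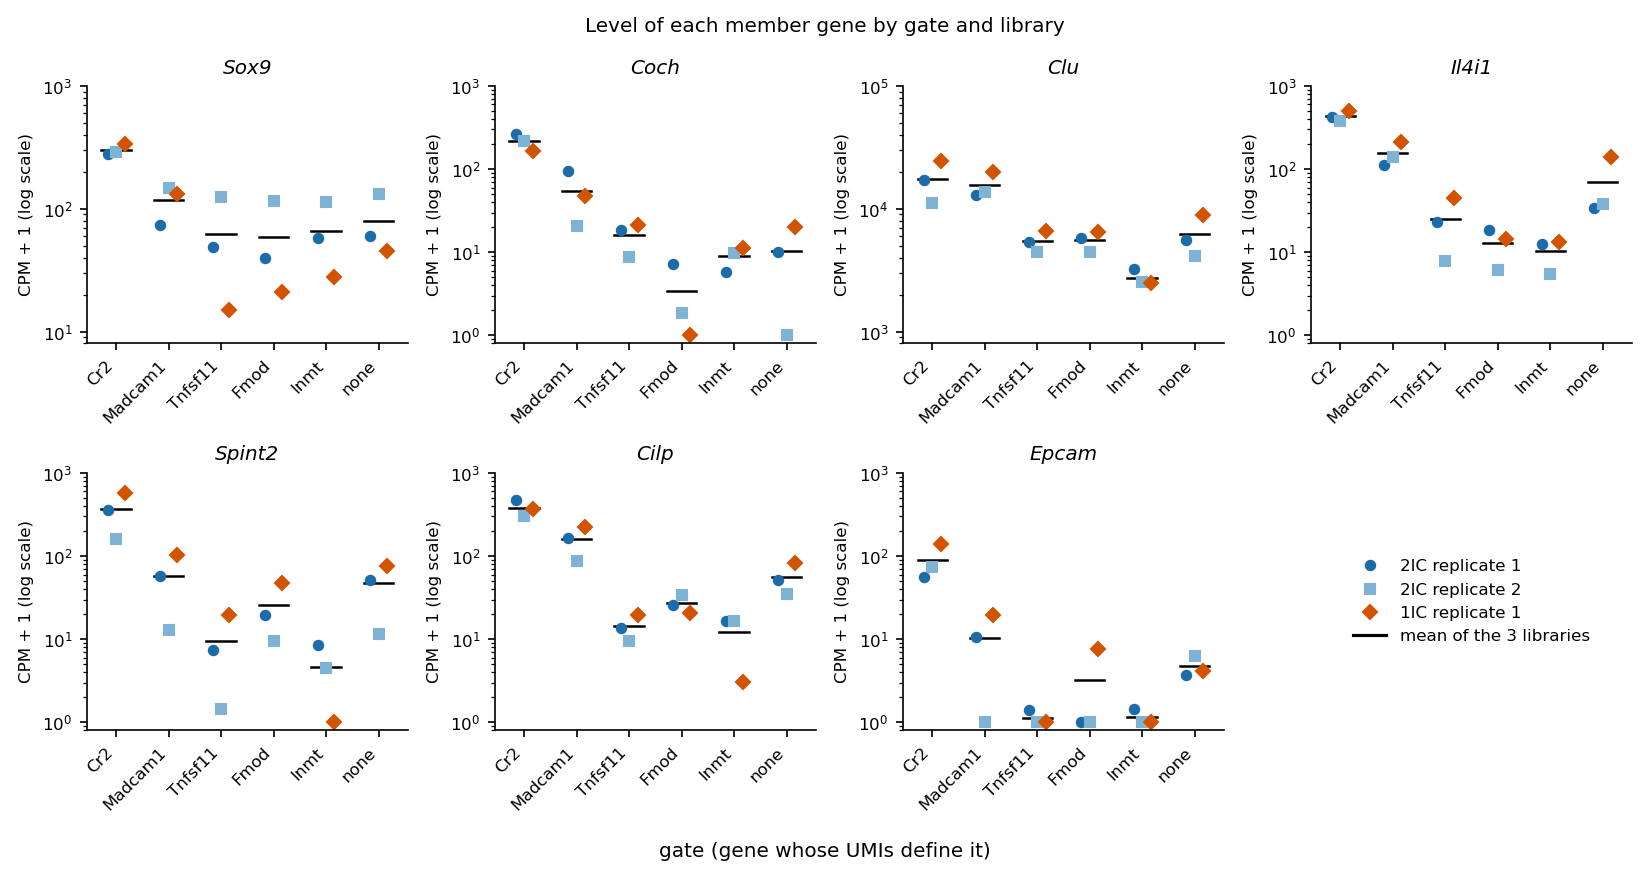
Level of each gene in CPM plus 1 (log scale) in the Cr2, Madcam1, Tnfsf11, Fmod and Inmt gates and in barcodes with none of these genes; a point is the sum of all barcodes of 1 library and a bar the mean of the 3 libraries. Epcam is at 18.5 CPM or less outside the Cr2 gate, Sox9 of 2-IC replicate 2 is at 112 CPM or more in every gate, and Clu of the Cr2 and Madcam1 gates overlaps.

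The gates differed in depth, so each barcode was also thinned to 2000 UMIs, which left 197 of the 230 barcodes of the Cr2 gate. At this depth a UMI of Il4i1 was found in 45.9% ± 5.77 of Cr2-gated barcodes (mean ± SD of the 3 libraries), of Cilp in 43.7% ± 5.93, of Spint2 in 42.8% ± 18.8, of Sox9 in 38% ± 7.3, of Coch in 19.8% ± 8.52 and of Epcam in 18.3% ± 9.05. At full depth the shares were 66.5%, 63.1%, 65.4%, 54.1%, 29.8% and 24.2%. Clu was found in 98.5% ± 1.46 at 2000 UMIs, and in 91.5% to 99.3% in the other 4 gates, so that detection of Clu did not separate the gates.

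For comparison, barcodes with T cell genes and no collagen UMIs were taken from those the filter removed. Their median depths were 3118, 9757 and 4265 UMIs against 5166, 10091 and 4836.5 in the Cr2 gate. Thinned in the same way, 0 of 99 had a UMI of Sox9 or Cilp, which allows a share of up to 3.66% (exact binomial interval, 95%). Coch and Il4i1 were each in 1.01% (up to 5.5%), Epcam in 2.02% (up to 7.11%), Spint2 in 9.09% (up to 16.6%) and Clu in 23.2%. Every share in the Cr2 gate lay above these bounds. In the Madcam1 gate, Sox9 (28.8% ± 11.1), Il4i1 (22.4% ± 13.6) and Cilp (13.3% ± 17.6) had mean shares above them, while Coch (4.45% ± 3.85), Spint2 (8.87% ± 7.68) and Epcam (0.74% ± 1.28, 1 of 74 barcodes) did not. Other removed classes differed. Il4i1 was in 15.7% of 459 barcodes with B cell genes and 22.2% of 18 with myeloid genes. Its level in the former, 158 ± 60.9 CPM, was close to the 154 ± 52.9 of the Madcam1 gate. Sox9, Coch and Cilp were in 0.436%, 0.436% and 0.654% of the B cell barcodes. In 25 barcodes with endothelial genes, mostly of 2-IC replicate 1, Coch was in 36%, Il4i1 in 52% and Spint2 in 48%. Pooled, Spint2 was in 8 of 74 Madcam1-gated and 9 of 99 T cell barcodes, at 56.9 ± 45.1 and 45.5 ± 12.7 CPM, which does not tell them apart. Its shares in the Tnfsf11 and Inmt gates, 2.91% ± 3.3 and 0.321% ± 0.555, lay below that of the T cell barcodes. The Epcam share was below that of the T cell barcodes. Whether these values are free RNA was not tested. The Coch share was above that of the T cell barcodes within counting error. The Coch level was 53.7 ± 38.3 CPM in the Madcam1 gate against 3.13 ± 2.82 in the T cell barcodes. The share of Sox9 in 2-IC replicate 2 was 14% to 16% in the Tnfsf11, Fmod and Inmt gates at equal depth, against 2.6% to 9.21% in these gates of the other libraries, where the Fmod gate of the 1-IC library had none of 19.

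**Figure D2:**
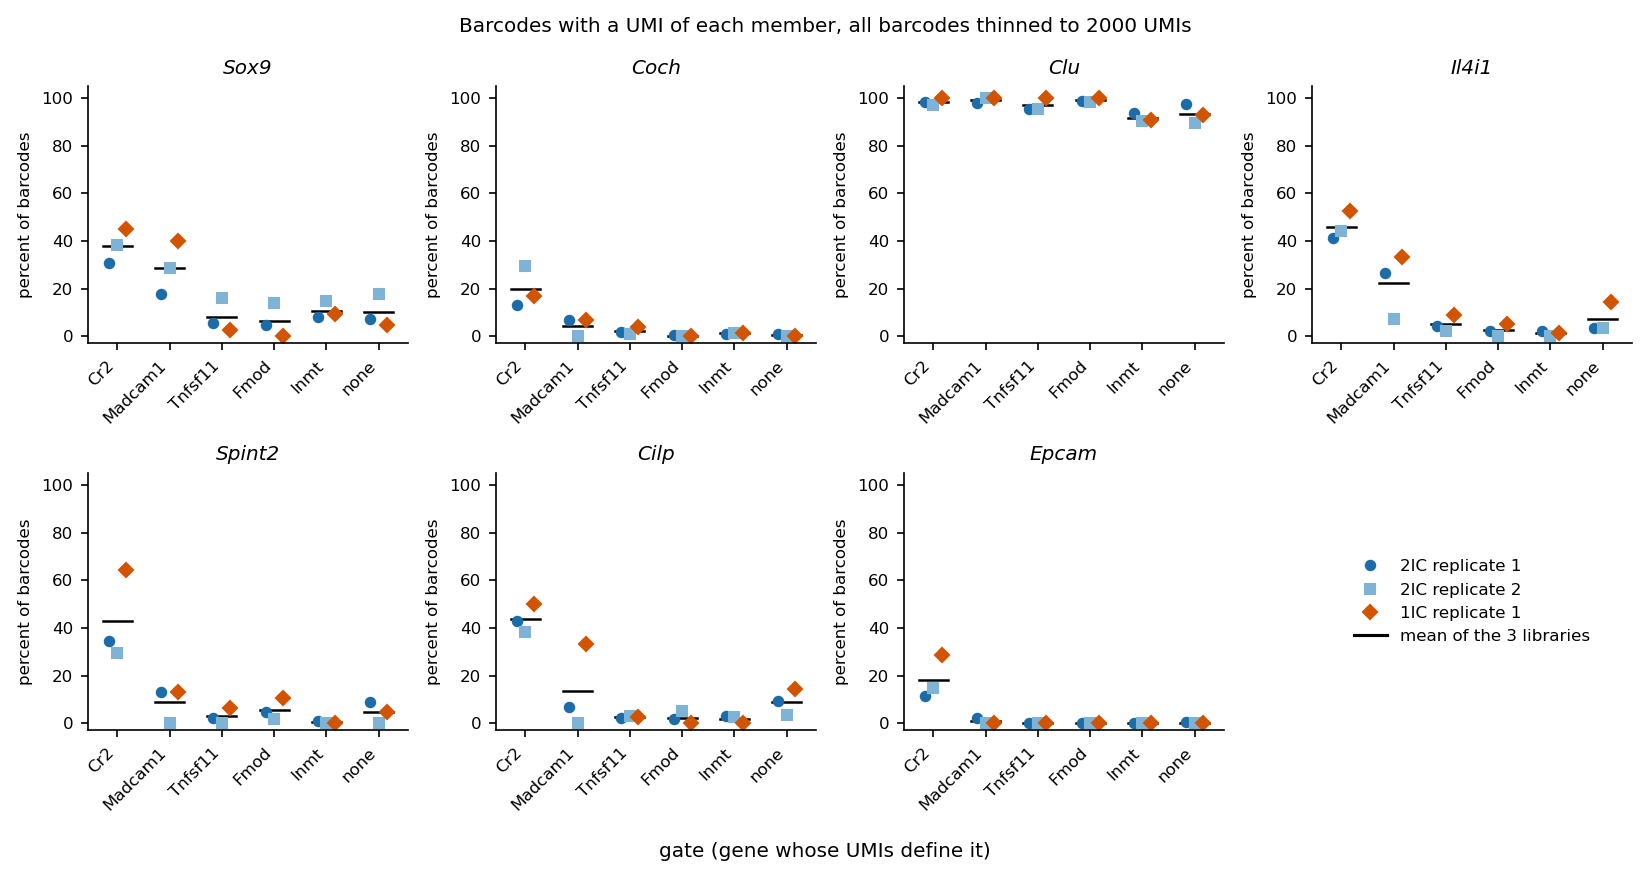
Percent of barcodes with at least 1 UMI of each gene after all barcodes were thinned to 2000 UMIs, by gate; points are libraries and bars the mean of the 3. Epcam was seen in 11.6% to 28.6% of Cr2-gated barcodes and in at most 2.22% in any other gate, and Clu in nearly all barcodes of every gate.

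Read the other way, most UMIs of 5 of the genes lay in the small Cr2 gate, which held 10.1%, 7.35% and 15.9% of all UMIs of retained barcodes. It held 85.2%, 93.8% and 91.8% of the Epcam UMIs, 69.6%, 75.3% and 77.4% of those of Spint2, 68.3%, 72.8% and 64.2% of Coch, 66.7%, 67.4% and 60.7% of Il4i1 and 65.5%, 53.1% and 64.1% of Cilp. For Sox9 the shares were 37.9%, 15.9% and 67.1%, and for Clu 27.3%, 16.5% and 40.8%. Sox9 thus varied most between the libraries in this measure.

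**Figure D3:**
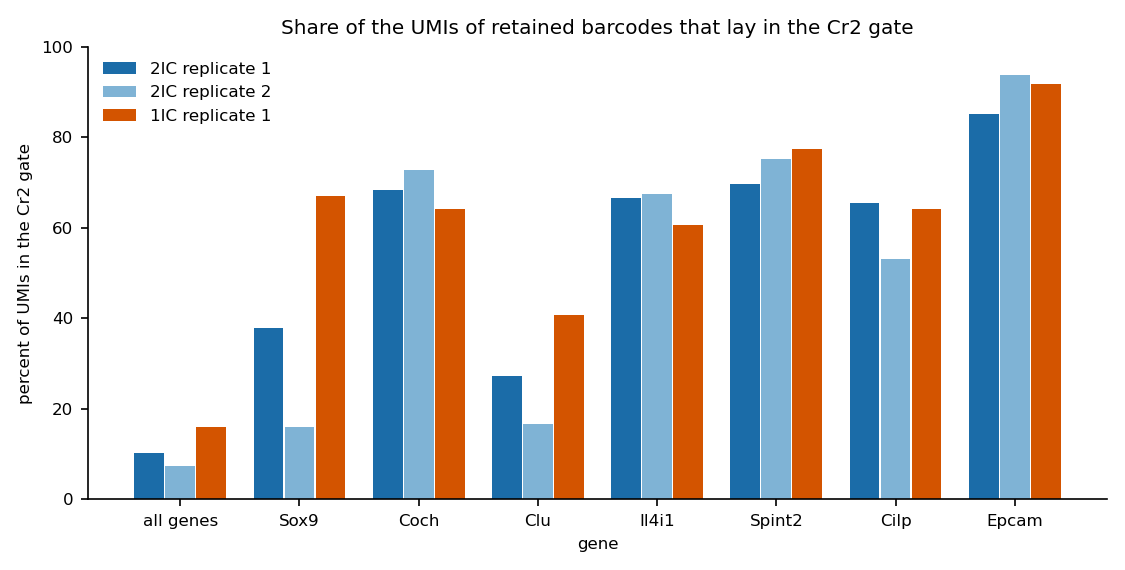
Percent of the UMIs of each gene, and of all genes, that lay in the Cr2 gate among retained barcodes; a bar is 1 library. Epcam reaches 85.2% to 93.8%, while Sox9 ranges from 15.9% to 67.1%.

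The genes were spread unequally over the barcodes of the gate. Of the 222 Coch UMIs of 2-IC replicate 1, 54.5% came from 5 of 145 barcodes, and 1 barcode alone held 40. In the same library the top 5 barcodes held 32.6% of the Epcam UMIs, 24.8% of those of Cilp, 21.8% of Il4i1 and 19.5% of Spint2. In 2-IC replicate 2, where the gate had 35 barcodes, the top 5 held 90% of the 30 Epcam UMIs, 71.4% of those of Coch, 61.4% of Cilp, 55.2% of Spint2 and 53.5% of Il4i1.

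At 2000 UMIs, 61.8% ± 9.65 of Cr2-gated barcodes had at least 2 of the 6 genes other than Clu, against 20.9% ± 13.1 in the Madcam1 gate and 1.95% ± 1.95, 0.19% ± 0.33 and 1.29% ± 1.23 in the Tnfsf11, Fmod and Inmt gates. None of the 6 was seen in 18.7% ± 13 of Cr2-gated barcodes. Within the Cr2 gate the genes did not pair evenly. Epcam was found in 34.2% of barcodes with Spint2 and in 3.39% of those without it, in 31% with and 3.64% without Il4i1, and in 39.4% with and 11% without Coch. It was in 16.3% with and 15.3% without Cilp, and in 17.4% with and 14.8% without Sox9. Il4i1 was in 78.8% of barcodes with Coch and in 37.2% of those without. These shares pool the 3 libraries, whose levels of Spint2 and Epcam differ, and are descriptions.

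**Figure D4:**
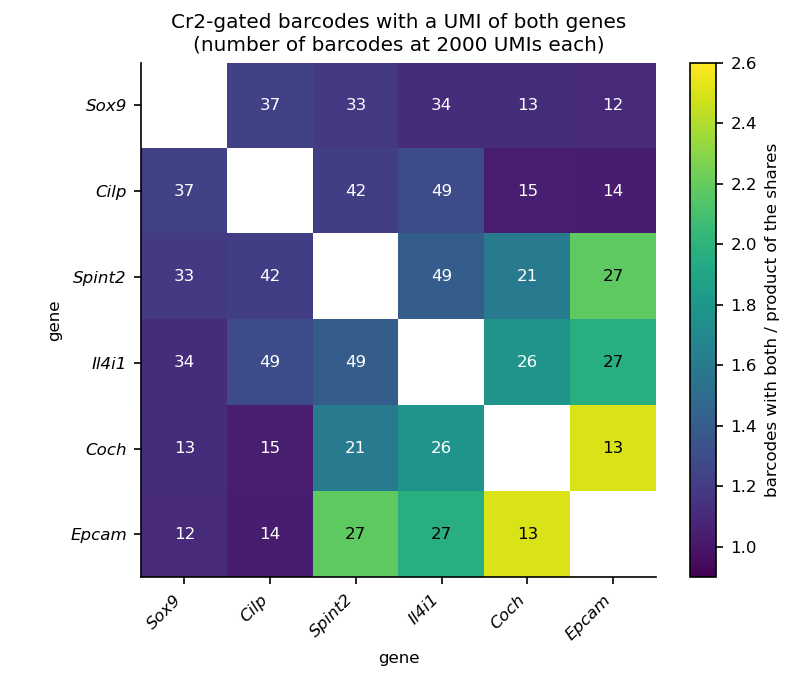
Pairs of the 6 genes in the 197 Cr2-gated barcodes with at least 2000 UMIs, thinned to 2000; numbers are barcodes with a UMI of both genes and colour is that number over the product of the shares of the single genes. Epcam, Coch, Il4i1 and Spint2 form the bright corner, with 27 barcodes for Epcam and Spint2 where the product of the shares gives 12.4, and Sox9 and Cilp lie near 1 with Epcam (14 barcodes with Cilp, product 13.5).

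Levels differed with the amount of Cr2, the gene of the gate, and are given as a description. In the 81 barcodes with 1 Cr2 UMI, Epcam was at 17.3 ± 24.3 CPM, Spint2 at 91.4 ± 71.1, Coch at 14.5 ± 15 and Sox9 at 133 ± 79.8. In the 49 with 2 to 4 UMIs they were at 88.8 ± 52.6, 414 ± 275, 245 ± 187 and 359 ± 21.1 CPM, and in the 100 with 5 or more at 116 ± 66.8, 471 ± 246, 292 ± 162 and 363 ± 30.6. At 2000 UMIs, Coch was in 0 of 62 barcodes with 1 Cr2 UMI, which allows up to 5.78%, and in 25.5% of those with 5 or more. For these 4 genes, and for Cilp and Clu, the classes with 2 to 4 and with 5 or more Cr2 UMIs overlapped. For Il4i1 they did not, at 98.2 to 466 CPM against 489 to 661. The share of all genes that separate in this way was not counted.

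Some FDCs carry the Fc receptors Fcgr2b and Fcer2a, so the Cr2 gate was split by whether a barcode had a UMI of either (122 barcodes) or of neither (108). Coch, Il4i1, Spint2 and Epcam rose in the barcodes with an Fc receptor, and Sox9, Clu and Cilp did not pass the test. Epcam was at 98.5, 146 and 185 CPM with an Fc receptor and at 2.58, 0 and 47.8 without, with 115 of its 121 UMIs on the former side. Coch was at 392, 326 and 235 CPM against 111, 113 and 9.57. The groups do not overlap for either gene, but the share of all genes that separate in this way was not counted.

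In edgeR's quasi-likelihood test over 3389 genes, with the library as block, the log2 fold change was 3.78 ± 0.64 (SE) for Epcam (adjusted p = 0.0211), 2.03 ± 0.37 for Coch (adjusted p = 0.0262), 1.58 ± 0.24 for Spint2 (adjusted p = 0.012) and 1.5 ± 0.28 for Il4i1 (adjusted p = 0.0272), each higher in 3 of 3 libraries. Epcam had 6 UMIs in the barcodes without an Fc receptor, so it passed the filter on low counts only through those with one. Coch, at 9.57 CPM in the barcodes of the 1-IC library without an Fc receptor, also passed only through those with one. The calls of Epcam and Coch are therefore given as a description. Spint2 was at 497 ± 245 CPM with and 171 ± 96.2 without an Fc receptor, and Il4i1 at 589 ± 66.6 against 224 ± 79.5. The 4 genes of the 7 stand beside 57 higher genes of all tested, or 1.68%, and 0 of the 7 were among the 42 lower genes (1.24%), since all 7 had log2 fold changes above 0. Because of how the genes were chosen, nothing is read from these counts. For Sox9 the log2 fold change was 0.78 (95% interval -0.01 to 1.56, adjusted p = 0.333), for Cilp 0.42 (-0.22 to 1.06, adjusted p = 0.543) and for Clu 0.37 (-0.21 to 0.95, adjusted p = 0.563).

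The Fc classes also differed in Cr2, which was at 1389 to 2396 CPM in barcodes with an Fc receptor and at 383 to 615 without. The genes had been chosen for their higher level in barcodes with Cr2, so the Fc split is not independent of that choice. Among barcodes with 2 or more Cr2 UMIs none of the 4 passed the test, with log2 fold changes of 2.69 for Epcam (adjusted p = 0.133), 1 for Coch (0.652), 0.81 for Spint2 (0.382) and 0.99 for Il4i1 (0.204). Without the library block only Epcam kept its call in edgeR (adjusted p = 0.0363, against 0.121 for Coch and Il4i1 and 0.165 for Spint2). None did without 2-IC replicate 1 (adjusted p = 0.108 to 0.229), and without the contaminant filter Coch (0.0771) and Spint2 (0.0667) did not.

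Barcodes with little Malat1, a nuclear RNA, were also compared with the rest of the Cr2 gate, since 63 of the 230 barcodes had Malat1 under 1% of their UMIs. They were shallower, with medians of 3368, 5774 and 3207 UMIs against 5791.5, 13706 and 8370.5. Epcam and Spint2 rose and Sox9 fell in them. Epcam was at 170, 262 and 473 CPM with little Malat1 and at 31.2, 39.3 and 71.4 with more. Its log2 fold change was 2.49 ± 0.3 (edgeR adjusted p = 0.00691, higher in 3 of 3 libraries). Epcam passed the filter on low counts only through the barcodes with little Malat1, so its call is given as a description. Spint2 was at 746, 541 and 1018 CPM against 280, 95.5 and 485 (log2 fold change 1.49 ± 0.31, edgeR adjusted p = 0.0271). Sox9 was at 92.3, 115 and 273 CPM against 317, 317 and 349 (log2 fold change -1.31 ± 0.35, edgeR adjusted p = 0.0479, lower in 3 of 3 libraries).

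Of 3216 genes tested, 114 (3.54%) were higher and 172 (5.35%) lower with little Malat1, against 2 and 1 of the 7. Sox9 lost its call with library size alone as scaling (adjusted p = 0.0624), in DESeq2 (0.127), without the block (0.0999) and without 2-IC replicate 2 (0.0977). Spint2 lost its call without the block (adjusted p = 0.134), and without the contaminant filter Spint2 (0.103), Epcam (0.0772) and Sox9 (0.199) all did. Coch was at 242, 919 and 654 CPM with little Malat1 and at 267, 98.3 and 60.1 with more, so that 2-IC replicate 1 alone did not have it higher (log2 fold change 1.97 ± 0.61, adjusted p = 0.0689). Without that library the log2 fold change of Coch was 3.03 (edgeR adjusted p = 1.75e-12). This fit leaves out the library that went the other way. Its p-value rests on the 2 remaining libraries and on dispersion shared over genes, so nothing is read from it. Without the filter on low counts Coch also passed (edgeR adjusted p = 3.05e-05). Clu, Il4i1 and Cilp had log2 fold changes of 0.52, 0.58 and -0.54 (adjusted p = 0.141, 0.172 and 0.225).

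Both splits overlap in their barcodes, as 29.2%, 38.9% and 43.8% of those with an Fc receptor had little Malat1, against 19.2%, 17.6% and 22.2% of those without. Among barcodes with at least 1% Malat1, Epcam (edgeR adjusted p = 0.0092) and Il4i1 (0.0419) kept their calls between the Fc classes, while Coch (0.147) and Spint2 (0.0577) did not. The log2 fold change of Spint2 was 1.5 ± 0.36 there, against 1.58 in all barcodes, and that of Coch 1.34 ± 0.41 against 2.03, with fewer barcodes in each sum. The part of Malat1 in the Fc split was not tested further. Over the alternatives of the Fc split the adjusted p ran from 5.93e-12 to 0.133 for Epcam, which did not pass the filter on low counts at 2000 UMIs and so has no value at equal depth, from 1.3e-07 to 0.652 for Coch, from 6.8e-06 to 0.382 for Spint2 and from 8.61e-06 to 0.229 for Il4i1.

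**Figure D5:**
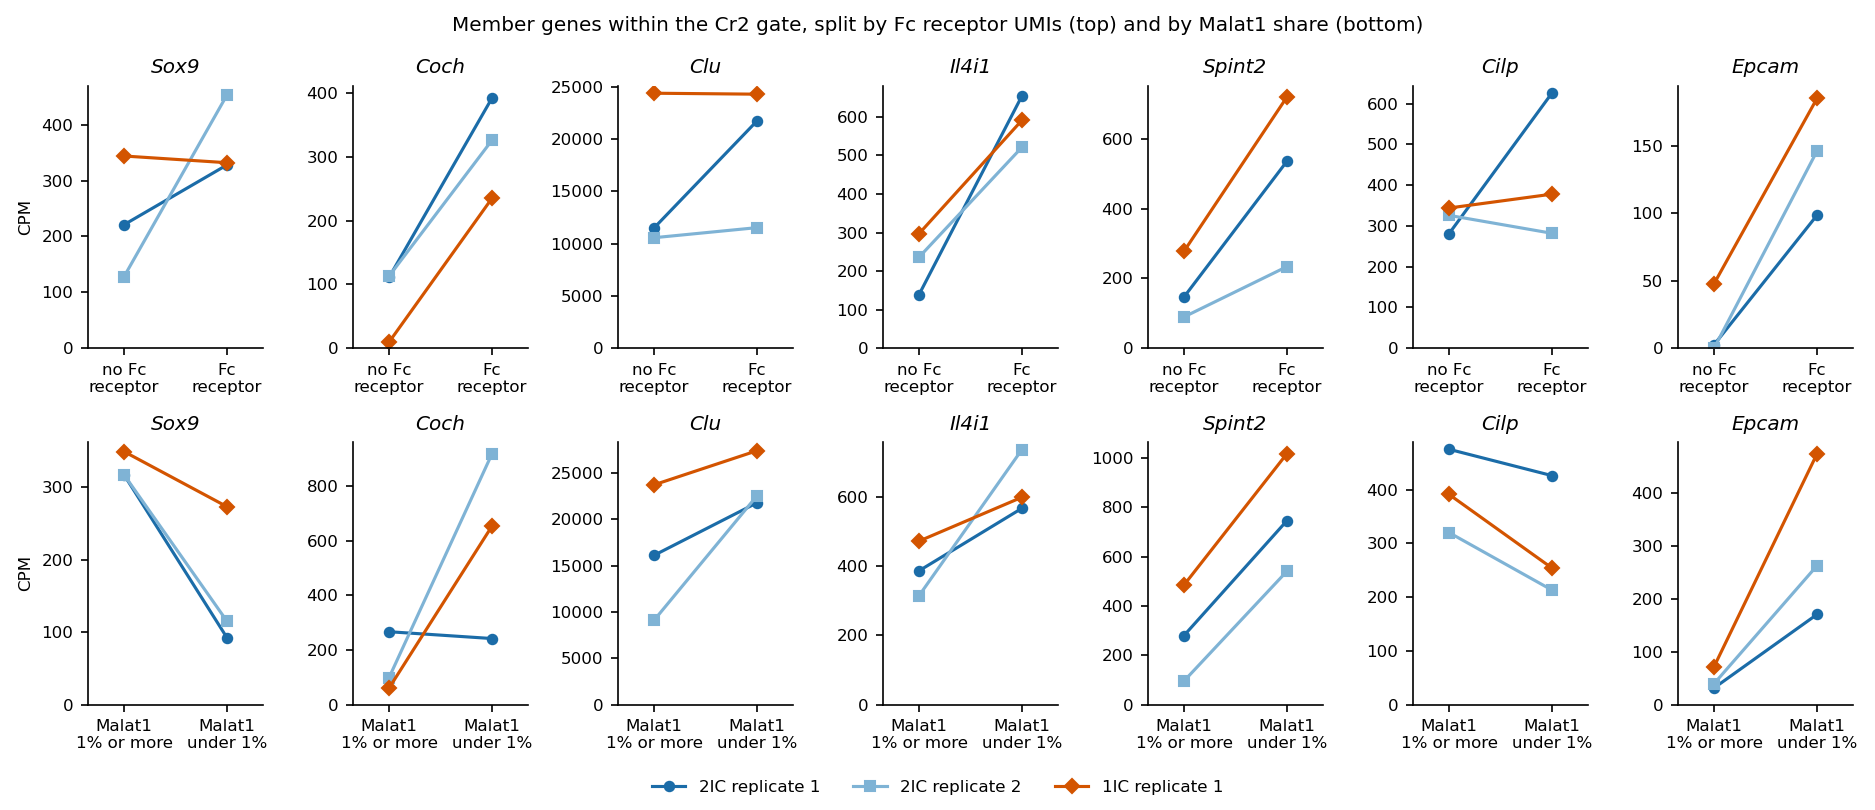
Level in CPM of each gene within the Cr2 gate; lines join the 2 sums of a library, without and with a UMI of Fcgr2b or Fcer2a (top) and with Malat1 at 1% or more and under 1% of UMIs (bottom). Epcam rises along every line of both rows, from 0 to 146 CPM in 2-IC replicate 2 at the top, and Sox9 falls along every line of the lower row.

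In the absence of Cr2 UMIs, the Madcam1 gate was compared with the Tnfsf11 gate, a contrast that holds no Cr2-gated barcode. It is not independent of the choice of the 7 genes, since these were chosen as lower in barcodes without Cr2, which include the Tnfsf11 gate. Clu, Il4i1 and Cilp rose in the Madcam1 gate, by 1.48 ± 0.17, 2.86 ± 0.33 and 3.53 ± 0.28 on the log2 scale (edgeR adjusted p = 4.18e-06, 4.18e-06 and 4e-08), each in 3 of 3 libraries. Clu was at 12923, 13740 and 19784 CPM against 5317, 4435 and 6600, Il4i1 at 111, 138 and 213 against 22.2, 6.9 and 43.6, and Cilp at 165, 86.6 and 222 against 12.7, 8.63 and 18.7. None of the 3 overlapped, but the share of all genes that separate in this way was not counted. The calls of Clu, Il4i1 and Cilp held under every alternative in which the gene was tested. Il4i1 and Cilp passed the filter on low counts only through the Madcam1 gate, so their calls are given as a description. Because of how the genes were chosen, nothing is read from the stability of the 3 calls. At equal depth only Clu of the 3 was tested, so the calls of Il4i1 and Cilp have no check there. In the Madcam1 gate of 2-IC replicate 2, 1 barcode held 16 of the 22 Cilp UMIs, and 1 held 19 of the 35 Il4i1 UMIs. At equal depth Cilp was in 0 and Il4i1 in 1 of 14 barcodes of this gate and library. The counts were 3 and 12 of 45 in 2-IC replicate 1, and 5 and 5 of 15 in the 1-IC library. For Sox9 the log2 fold change was 0.83 (95% interval 0.18 to 1.49, adjusted p = 0.176).

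Of the 6163 genes tested, 157 (2.55%) were higher and 135 (2.19%) lower in the Madcam1 gate, against 3 and 0 of the 4 genes of the 7 that passed the filter on low counts. Given how the genes were chosen, nothing is read from this count. Cilp, at 13.3 ± 5.07 CPM in the Tnfsf11 gate, passed the filter only through the Madcam1 gate. So did Il4i1, at 6.9 CPM in the Tnfsf11 gate of 2-IC replicate 2, and Sox9, at 14 CPM in that of the 1-IC library. Coch, Spint2 and Epcam did not pass the filter and were at 53.7 ± 38.3, 56.9 ± 45.1 and 9.35 ± 9.27 CPM in the Madcam1 gate. The 5 UMIs of Epcam there came from 2 of the 7 barcodes that also had an Fc receptor UMI, and the other 76 barcodes had 0.

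In barcodes without Cr2 but with an Fc receptor (77), Spint2 was at 193 ± 261, Il4i1 at 165 ± 217, Cilp at 140 ± 145 and Epcam at 42.5 ± 61.5 CPM. The SDs exceed the means, since the 8 such barcodes of the 1-IC library had 491, 415, 302 and 113 CPM of these genes, in this order, and those of the 2-IC group at most 82.9, 50.5, 93.7 and 14.4. At 2000 UMIs 15.3% of these barcodes had Cilp, 11.9% Spint2 and 8.47% Il4i1. The 1936 barcodes with neither receptor had 27 ± 6.88, 14.6 ± 10.2 and 30.4 ± 21.6 CPM of Cilp, Spint2 and Il4i1.

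The pathways around the 7 genes were read from lists of 57 genes in all. Of the epithelial list (Cdh1, claudins, keratins and the regulators Esrp1, Elf3 and Grhl2), 10 of 10 genes had 0 UMIs in the Cr2 gate, where 3 counts are worth 3.55, 7.2 and 9.34 CPM in the 3 libraries. Epcam was detected in the same gate, and Krt18 is one of the genes of the contaminant filter. Of the cartilage list, 11 of 13 genes had 0 UMIs, among them Acan and Col2a1, which encode main components of cartilage matrix, and Cilp2, the relative of Cilp. The others were Sox5 at 26.3 ± 8.43 CPM and Sox8 at 21.7 ± 11.4.

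Among the Kunitz inhibitors and their proteases, Met, the receptor of hepatocyte growth factor, was at 77.8 ± 30.3 CPM in the Cr2 gate and at 28.7 in the Madcam1 gate, and Hgf, its ligand, at 33.3 ± 8.01. St14 and Prss8, proteases that the Spint2 product inhibits, had 0 UMIs. Of the amino acid list, Cyp1b1 (76.8 ± 37.8 CPM) and Ahr (45.6 ± 45.5), the receptor that products of Il4i1 can activate, were detected, with 169 and 140 CPM in the Tnfsf11 gate. Among receptors of clusterin, Lrp1 was at 98.5 ± 64.7, Vldlr at 33 ± 6.98 and Lrp8 at 10.4 ± 6.39 CPM, and Lrp2 had 0 UMIs. The LCCL and vWA proteins related to cochlin, Crispld2 (20.5 ± 17.6) and Vit (14.5 ± 10.5), had 59.8 and 71.1 CPM in the Inmt gate.

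In the Fc split, of the 9 tested genes of the FDC function list 1 was higher, Prnp, the prion protein gene (log2 fold change 1.78 ± 0.21, edgeR adjusted p = 0.00499), and the median of the list was -0.06 against 0.00831 over all genes. With little Malat1, 2 of 11 were higher (Fcer2a, 1.59 ± 0.33, and Fcgr2b, 1.19 ± 0.27) and 2 lower (Enpp2, -1.03 ± 0.2, and C4b, -1.15 ± 0.3), with edgeR adjusted p = 0.0261, 0.0303, 0.023 and 0.0467. The median was -0.18 against -0.0594 over all genes. In the Madcam1 gate against the Tnfsf11 gate, 4 of 10 were higher: Bst1 (1.44 ± 0.2), Mfge8 (1.32 ± 0.18), Cxcl13 (1.29 ± 0.18) and Prnp (0.75 ± 0.2), with a median of 0.32 against -0.00723 over all genes. In this last contrast Lrp1 (-1.25 ± 0.23), Ahr (-1.25 ± 0.26), Vit (-2.19 ± 0.52) and Crispld2 (-2.23 ± 0.53) were lower (edgeR adjusted p = 0.0012, 0.00387, 0.0117 and 0.0104), and no other gene of the 7 lists passed in any of the 3 comparisons. Prnp, Bst1, C4b and the FDC genes outside the 4 most abundant were named after their values were seen.

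Over the 15 sums of 5 gates and 3 libraries, the genes with a pattern most like each of the 7 were S1pr3, Cyp51 and Becn1 for Sox9 (Pearson r of log2 CPM 0.937, 0.929 and 0.927), Sema7a, Tmem150c and Stra6 for Coch (0.959, 0.952 and 0.95) and Mfge8, Bst1 and Ttc6 for Clu (0.961, 0.955 and 0.951). They were Gcnt1, Wbscr27 and Mlc1 for Il4i1 (0.970, 0.967 and 0.965), Akr1cl, H2-M2 and Cd200 for Spint2 (0.974, 0.971 and 0.955), Dapk2, Fabp5 and Sc5d for Cilp (0.966, 0.956 and 0.956) and Ephx4, A230065H16Rik and Aplp1 for Epcam (0.975, 0.969 and 0.968). The sums share their libraries and their gates, so that any gene high in the Cr2 gate scores well, and these are the highest of 3022 candidates. The ranks depend on the pseudocount of 10 CPM: with 1 CPM in its place, 12 of the 21 genes were again among the 3 most alike, with 3 of 3 for Sox9 and Cilp, 2 for Clu and Spint2, 1 for Il4i1 and Epcam and 0 for Coch. S1pr3, the closest to Sox9, was at 662 CPM in the Cr2 gate and 182 to 341 in the others.

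Among the 7 genes themselves r was highest between Spint2 and Epcam (0.95) and between Il4i1 and Cilp (0.94), and lowest between Sox9 and Clu (0.57). Between the conditions no test was possible, since the 1-IC condition had 1 library. In the Cr2 gate Epcam (140 CPM against 54.4 and 72), Spint2 (576 against 357 and 161) and Clu (24340 against 17043 and 11052) were higher in the 1-IC library than in both 2-IC libraries, as were Sox9 (336 against 279 and 288) and Il4i1 (495 against 418 and 377). Coch was lower (162 against 263 and 218), and Cilp lay between them (367 against 467 and 305).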

How the data were processed

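Lymph node stromal cells were profiled with the 10x Genomics 3' v3 kit in 3 libraries. The authors aligned reads to GRCm38 (Ensembl 89) and counted UMIs with Cell Ranger (5.0.0 in the file headers), and deposited raw UMI counts per gene and barcode for barcodes called as cells, without normalization. As in the study's methods, barcodes with fewer than 200 genes, over 10% mitochondrial UMIs or any UMI of 13 contaminant genes (Ptprc, Cd79a, Cd79b, Cd3d, Trac, Cldn5, Egfl7, Krt18 and others) were left out here, which also lowers genes of those cells. No doublet caller entered the main values; Scrublet (scanpy 1.11.5), an alternative, marked 17 of 4513 barcodes and none in the Cr2 gate, too few to have worked, so that doublets may remain. Gates need 1 UMI, in the order Cr2, Madcam1, Tnfsf11, Fmod, Inmt.

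Counts were summed per library and gate and given as CPM. Intervals are exact (Poisson or Clopper-Pearson, 95%), cover counting error only, and fewer than 3 UMIs in the other gate of a fold were set to 3. Sums were tested with edgeR 4.0.16 (R 4.3.3; TMM, filterByExpr, quasi-likelihood, Benjamini-Hochberg adjusted p under 0.05, library as block because both sums of a library come from 1 suspension). SE is the log2 fold change over the square root of F. DESeq2 1.42.0 and other settings were alternatives. Simulated data with the sizes of the Fc split had 1 mean profile for all libraries and 1 dispersion for all genes, and so were simpler than the real sums. Of 3126 genes there, edgeR called 187, of which 174 were among the 200 changed by 2 log2 units (87%). DESeq2 recovered 71.5%. The genes named are the 7, the genes of fixed lists (up to 4 per list, by CPM) and the 3 most alike per gene by correlation of log2(CPM + 10). The 7 genes and the lists were chosen with earlier results of these data known. The short descriptions of the 2-IC libraries conflict, and titles set the groups.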

Additional observations from a re-analysis of the deposited data

Results flagged for a closer look

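Some of the 7 genes were also found in barcodes that the contaminant filter had removed and that no comparison above used. In 539 barcodes with at least 2 UMIs over Cd79a and Cd79b and none of Col1a2 and Col3a1 (a B cell class), Il4i1 was at 158 ± 60.9 CPM (mean ± SD of the 3 libraries), and Epcam at 13.7 ± 6.08 CPM. In each library both lay above the retained barcodes without Cr2 and Fc receptor, whose means were 30.4 and 0.515 CPM. In the T cell class Epcam was at 3.63 ± 6.29 CPM, and the part of free RNA in these values was not tested.

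A class of 27 barcodes with endothelial genes, 21 of them in 2-IC replicate 1, held 198 Coch UMIs in that library, or 1242 CPM, where the retained barcodes without Cr2 and Fc receptor had 11.9. The same 21 barcodes were at 10674 CPM for Clu, 446 for Il4i1 and 402 for Spint2, against 5008, 22.4 and 15.1, while Epcam, Cilp and Sox9 had 0 UMIs. The other libraries had 3 such barcodes each, with 6 and 2 Coch UMIs, so that the Coch value rests on 1 library. Groups of 3 libraries are too small for a check of single outlying samples.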

How the results depend on the processing

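The ratios of the Cr2 gate over the 4 other gates pooled kept their direction for all 7 genes under all alternatives tried. The genes were chosen on this contrast, so nothing is read from that. Pooling also hides the turned order of Clu and Coch against the Madcam1 gate alone, given above. The count of genes at least 4-fold higher than in each gate (2 of 7) was 0 without the contaminant filter. It was also 0 with gates and values thinned to 2000 UMIs and 0 with values thinned to 1000 UMIs. In thinned sums the floor of 3 counts is worth more CPM, and low genes can miss the limit through it. The count was 1 with at least 1% Malat1, 1 with a minimum of 200 CPM and 2 without any 1 library. The shares of all genes under these alternatives are not given, so nothing is read from these counts. For the Fc split, 99 genes were called in all: 149 without TMM, 387 without the filter on low counts, 25 without the replicate block, 369 without the contaminant filter and 11 (without 2-IC replicate 1) to 168 (without the 1-IC library). The 3 alternatives were chosen after seeing the data and gave 240 without shared barcodes, 4 with 2 or more Cr2 UMIs and 50 with at least 1% Malat1. For the Malat1 split (286 genes), the counts were 146 in DESeq2, 536, 136, 141 at 2000 UMIs, 45 without the contaminant filter, and 111 (without 2-IC replicate 2) to 617 (without 2-IC replicate 1), where 536 and 136 are without the low-count filter and without the block. For the Madcam1 against the Tnfsf11 gate (292 genes), they were 128 in DESeq2, 449 without the low-count filter, 54 without the replicate block, 80 at 2000 UMIs, 548 without the contaminant filter and 165 (without 2-IC replicate 2) to 249 without 1 library. Of the 7 genes, Clu (-0.45) and Cilp (0) turned in the Fc split without the contaminant filter and Clu (-0.02) and Cilp (-0.14) with 2 or more Cr2 UMIs, and Il4i1 (-0.25) in the Malat1 split at 2000 UMIs; none of these had been called, and the cause was not tested. The Cr2 gate held 35 barcodes in 2-IC replicate 2, and Epcam had 121 UMIs in the Cr2 gate.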
